A study of Mus musculus with 2 samples.

Results

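Open promoters that carry few CpG dinucleotides were described in fetal mouse liver of embryonic day 11.5, from DNase-seq, in which nuclei are treated with DNase I and accessible DNA is cut and sequenced first. A member was an autosomal protein-coding gene with a CpG observed/expected ratio below 0.35 in the 1000 bp around its 5′ end and a listed peak of technical replicate 7 centred within 500 bp of that end which overlapped a listed peak of technical replicate 1 by at least 1 bp. Of 20807 autosomal protein-coding genes, 7470 had such a CpG-poor start, and 374 of these were open. The open promoters were chosen by the peak lists themselves, so their peaks and ranks are given as a description, with no test. They are set against 6633 closed CpG-poor starts, with no peak of either library centred within 500 bp, and against 11025 open CpG-rich promoters, with a ratio of 0.35 or more. A further 445 CpG-poor starts had a peak of technical replicate 7 only, 16 had a peak of technical replicate 1 only, and 2 had peaks of both that did not overlap.

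Both libraries came from the same biosample, livers of mixed-sex embryos of the strain B6NCrl, which the labels call biological replicate 1. They are technical replicates, numbered 7 and 1, so 1 biological sample is described, no p-value over samples can be given, and all intervals are 95% intervals for counting error alone. Technical replicate 7 had 86036 peaks and technical replicate 1 had 42422, and densities were resolved in steps 2.52 times smaller in technical replicate 7 than in technical replicate 1. Promoters with a peak of technical replicate 7 only are therefore kept apart from closed starts throughout. In bulk tissue a low signal from all cells and a strong signal from few cells cannot be told apart.

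Most mammalian promoters lie in CpG islands, stretches where the dinucleotide has been kept and which are usually open in every cell type. Promoters outside islands tend to belong to genes used in particular cell types, and many carry a TATA box, the sequence that positions the transcription machinery close to the start. The fetal liver forms red cells besides holding hepatoblasts, and erythroid genes are known to be controlled by GATA1 with TAL1, which together bind an E-box beside a GATA site. CTCF is a zinc-finger protein that binds a long site and leaves a clear protected stretch in DNase data, a footprint. SP and KLF proteins bind GC and CACCC boxes, and NF-Y binds the CCAAT box.

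Sequences of members are shown because their promoters held more matches to some of these motifs than closed starts did. All are from the mouse assembly mm10 (GRCm38), written 5′ to 3′ in the direction of the gene, and end before the annotated 5′ end. For CTCF and the E-box GATA composite, members of highest mean rank were taken. Their match had to lie upstream, inside the peak of technical replicate 7 and away from annotated exons. For the composite only genes of the erythroid and platelet lists were used. A TATA box did not have to lie inside the peak or away from exons. The first set shows CTCF, with the match in capitals. The members are Amigo3 (chr9:108053006-108053056), a neuronal adhesion protein, Arhgap22 (chr14:33213895-33213945), a GTPase-activating protein, and Tmem211 (chr5:113226734-113226784), a transmembrane protein. In all 3 the centre of the match lay in a deposited footprint of both libraries.
Amigo3: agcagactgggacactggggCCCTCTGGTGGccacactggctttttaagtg
Arhgap22: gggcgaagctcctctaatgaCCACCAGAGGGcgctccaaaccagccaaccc
Tmem211: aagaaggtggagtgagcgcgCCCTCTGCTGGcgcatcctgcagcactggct

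The second set shows the E-box GATA composite, a spacing bound by TAL1 and GATA1 complexes. It was searched as CTG, 7 to 9 bases of any kind, then AGATAA or TGATAA. Only the letters CTG of the E-box were required, so a match need not hold a full E-box. It is shown in the erythroid and platelet genes that hold it. These are Nfe2 (chr15:103258522-103258578), which encodes a subunit of the transcription factor NF-E2, Epb42 (chr2:121037073-121037123), a protein of the red cell membrane skeleton, Ermap (chr4:119190026-119190082), an erythroblast membrane protein, and Itga2b (chr11:102470169-102470225), the platelet integrin chain CD41. The match, with its spacer, is in capitals. It lies on the gene's strand in Nfe2 and on the opposite strand in the other genes. Its centre lay in a footprint of technical replicate 1 in Nfe2 and Ermap and in no footprint of the shorter list of technical replicate 7 in any of the 4.
Nfe2: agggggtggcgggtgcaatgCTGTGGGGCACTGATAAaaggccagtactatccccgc
Epb42: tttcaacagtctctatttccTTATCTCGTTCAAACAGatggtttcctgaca
Ermap: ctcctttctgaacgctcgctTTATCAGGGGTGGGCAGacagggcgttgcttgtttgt
Itga2b: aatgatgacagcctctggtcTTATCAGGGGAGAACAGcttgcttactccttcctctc

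The third set gives the 200 bases before the 5′ end in the 4 members of the erythroid list with the highest mean rank. Footprints of the shorter deposited list of technical replicate 7 are in capitals, to show where protection was called. They are Nfe2 (chr15:103258404-103258603), Epor (chr9:21963507-21963706), the erythropoietin receptor, Trim10 (chr17:36869374-36869573), a tripartite-motif protein of differentiating erythroblasts, and Epb42 (chr2:121037073-121037272). In Nfe2 the only footprint of that list fell on a GC box, and in Epor the longer of 2 footprints did. Each stretch also held a GATA match, on one strand or the other, and in all 4 it lay outside the footprints of that list, in lower case.
Nfe2: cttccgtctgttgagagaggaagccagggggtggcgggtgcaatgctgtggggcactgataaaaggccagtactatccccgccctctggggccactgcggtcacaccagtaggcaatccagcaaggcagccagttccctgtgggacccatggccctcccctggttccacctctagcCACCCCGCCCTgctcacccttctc
Epor: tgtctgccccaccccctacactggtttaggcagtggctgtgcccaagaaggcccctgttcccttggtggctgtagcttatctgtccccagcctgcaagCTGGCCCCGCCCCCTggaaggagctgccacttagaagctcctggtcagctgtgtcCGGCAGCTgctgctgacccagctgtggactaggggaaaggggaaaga
Trim10: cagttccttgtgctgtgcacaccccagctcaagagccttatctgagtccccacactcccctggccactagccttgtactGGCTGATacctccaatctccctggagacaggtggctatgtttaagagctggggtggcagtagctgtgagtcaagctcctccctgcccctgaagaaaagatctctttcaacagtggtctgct
Epb42: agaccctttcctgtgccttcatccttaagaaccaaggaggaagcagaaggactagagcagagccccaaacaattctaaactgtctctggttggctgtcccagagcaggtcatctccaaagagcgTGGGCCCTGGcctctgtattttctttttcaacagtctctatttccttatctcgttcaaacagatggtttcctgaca

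The fourth set shows the TATA box, which only 5 members held at its usual distance, from 40 to 15 bases before the 5′ end. Shown are Acy3 (chr19:3986520-3986565), an aminoacylase, Myh11 (chr16:14291373-14291413), smooth muscle myosin heavy chain, Cxcl3 (chr5:90786051-90786096), a chemokine, and Agtr1b (chr3:20367183-20367228), an angiotensin receptor. For comparison the last 2 lines give closed starts with a TATA box, those of Car1 (chr3:14808371-14808416), carbonic anhydrase of the red cell, and Ppbp (chr5:90768468-90768513), a platelet chemokine.
Acy3: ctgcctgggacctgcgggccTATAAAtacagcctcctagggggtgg
Myh11: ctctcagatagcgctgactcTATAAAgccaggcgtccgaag
Cxcl3: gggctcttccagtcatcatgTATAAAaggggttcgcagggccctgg
Agtr1b: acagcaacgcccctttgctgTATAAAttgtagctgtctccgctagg
Car1: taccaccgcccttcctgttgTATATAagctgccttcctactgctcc
Ppbp: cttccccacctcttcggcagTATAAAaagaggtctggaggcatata

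Open chromatin was rare at CpG-poor starts and climbed steeply with CpG content even among them. Open in both libraries were 5.01% of CpG-poor starts (95% interval 4.52 to 5.53), against 82.7% of CpG-rich starts and 54.8% of all 20807. Of 499 starts with a ratio below 0.05 none was open, which allows a share of up to 0.601% (3 counts of the total). The share was 1.12% (18 of 1604) at ratios of 0.1 to 0.15, 5.20% (58 of 1115) at 0.2 to 0.25 and 19.9% (146 of 735) at 0.3 to 0.35. Just above the limit, at 0.35 to 0.4, it was 29.7% (195 of 657), so no step marks the limit itself. When a peak of technical replicate 7 was enough, 821 CpG-poor starts (11.0%) counted as open.

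**Figure D1:**
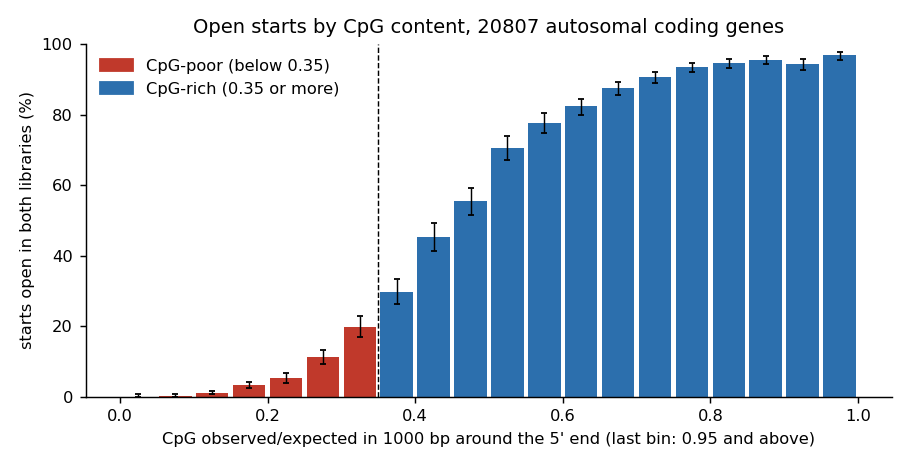
Share of starts open in both libraries (vertical axis, %) by CpG observed/expected in 1000 bp around the 5′ end (horizontal axis, bins of 0.05), for 20807 autosomal protein-coding genes. Red bars are CpG-poor and blue bars CpG-rich, error bars are exact 95% binomial intervals, and the dashed line is the limit of 0.35. The bars climb from 0 of 499 starts in the lowest bin to 19.9% at 0.3 to 0.35 and 29.7% at 0.35 to 0.4.

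The open promoters were the more CpG-containing end of the CpG-poor class and were richer in G and C than closed starts. Their median CpG observed/expected was 0.280, against 0.156 in closed starts, and their median GC content was 52.8%, against 44.9%. Open CpG-rich promoters had a median GC content of 60%. A median of 10.4% of the 1000 bp was repeat-masked in open CpG-poor promoters, against 14.3% in closed starts. In 43 members (11.5%) the ratio was 0.35 or more when it was measured around the centre of the peak instead of the 5′ end. Madd, a Rab exchange factor, was one of them, with a peak 497.5 bp downstream of its 5′ end and a ratio of 0.604 there. Such members were CpG-rich by the limit around the peak and CpG-poor by it around the annotated end. Both windows are 1000 bp long and overlap, so a member close to the limit can pass it through a small shift.

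Members just inside the limits of the rule were set beside the nearest starts outside it. Fam13a, Slc2a10 and Syn3 lay just inside the CpG limit, with ratios between 0.349 and 0.35, and rank percentiles of 79.5, 24.2 and 91.1 in technical replicate 7. Ccrl2, Zfp108 and Chd2 lay just outside, with ratios between 0.35 and 0.351, and rank percentiles of 78.6, 88.3 and 85.9. At the distance limit, 4933415A04Rik, 4930451I11Rik and Pklr, the red cell and liver pyruvate kinase, had peak centres at −498.5, −499 and 500 bp from the 5′ end, negative values being upstream, and ranked at percentiles 69.2, 83.0 and 52.6 in technical replicate 7 and 48.2, 60.1 and 32.0 in technical replicate 1. Atp5j2, Sra1 and Irf9 were left out with peak centres at 501, 501.5 and 505.5 bp, and ranked higher, at percentiles 92.6, 93.7 and 91.2 in technical replicate 7 and 78.1, 85.7 and 72.1 in technical replicate 1.

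Members were spread over all 19 autosomes and mostly stood alone. Their 374 genes used 367 distinct peaks of technical replicate 7, and 13 members shared a peak with another member, among them Gm6034 and H2-T22, a non-classical MHC gene. Another gene's 5′ end lay within 1000 bp in 11.8% of members, against 5.53% of closed starts and 33.3% of open CpG-rich promoters. The peak centre lay within 100 bp of the 5′ end in 63.1% of members and upstream of it in 64.4%, against 67.4% and 65.8% of open CpG-rich promoters. The annotated 5′ end was the start of a basic transcript in 77.5% of members, against 86.3% of closed starts. For the others, such as Nfe2 and Itga2b, the outermost 5′ end belongs to a transcript outside the basic set.

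Peaks at open CpG-poor promoters were weak next to those at CpG-rich ones. A rank percentile is the share of a library's peaks whose highest density of DNase cuts is no higher. The members' median rank percentile was 69.8 in technical replicate 7 (quartiles 54.7 and 83.2) and 39.0 in technical replicate 1 (19.7 and 57.1). Open CpG-rich promoters had medians of 92.8 and 84.1. The median width was much the same, 264.5 bp in members and 271 bp in CpG-rich promoters in technical replicate 7. The members' densities ranged from 0.308 to 4.84 in technical replicate 7, with a median of 0.977, and from 0.546 to 4.64 in technical replicate 1, with a median of 1.07. Above the 50th percentile in both libraries lay 129 members (34.5%). Above the 90th in both lay 4 members (1.07%), against 3638 (33.0%) of the CpG-rich promoters.

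**Figure D2:**
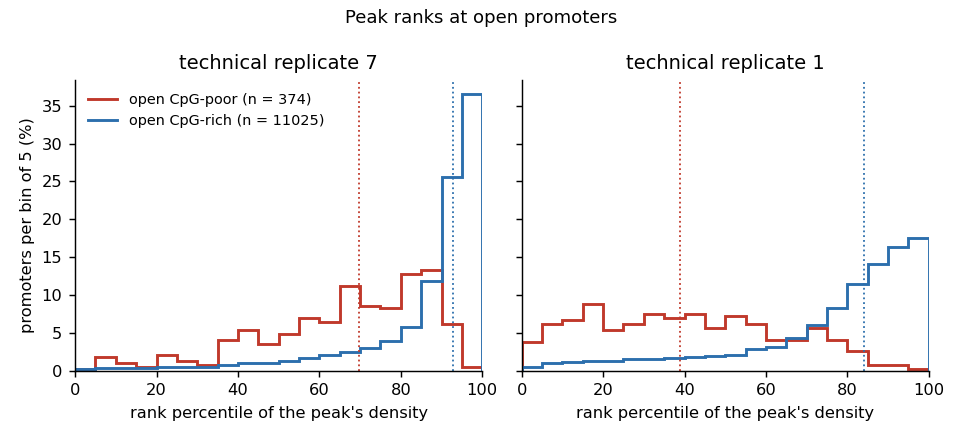
Distribution of density rank percentiles (horizontal axis) of promoter peaks, as the share of promoters per bin of 5 percentiles (vertical axis, %), for technical replicate 7 (left) and technical replicate 1 (right). Red lines are the 374 open CpG-poor promoters, blue lines the 11025 open CpG-rich ones, and dotted lines their medians, at 69.8 and 92.8 in technical replicate 7 and at 39.0 and 84.1 in technical replicate 1.

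The 4 members above the 90th percentile in both libraries were Tldc1, Madd, Lhx3 and Nfe2. Tldc1, a TLDc-domain protein, had densities of 4.84 in technical replicate 7 and 4.64 in technical replicate 1, percentiles 97.6 and 97.5. Lhx3, a LIM-homeobox factor known from pituitary and motor neurons, had densities of 3.52 and 3.55, percentiles 93.8 and 91.3. Nfe2, the erythroid and megakaryocytic bZIP factor, had densities of 3.51 and 3.52, percentiles 93.8 and 91.0. Pold4, a small subunit of DNA polymerase delta, Ticam1, the Toll-like receptor adaptor TRIF, Amigo3, Bak1, a pro-apoptotic BCL-2 relative, Gstm7, a glutathione transferase, Baz2a, a chromatin remodelling subunit, and Pter followed, with mean percentiles over both libraries of 86.8 to 90.6. Gm20661, Dpp7, a dipeptidyl peptidase, Rab26, a small GTPase, and Cd59a, a complement inhibitor, closed the 15 of highest mean percentile, at 85.0 to 86.2.

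At the other end stood Ldb2, Agtr1b, Etnppl, Opcml and Wdr72, with mean percentiles of 9.09, 7.38, 5.30, 4.62 and 3.22. Opcml is a neuronal cell adhesion protein and Etnppl an enzyme of phospholipid breakdown. Their densities lay between 0.308 and 0.364 in technical replicate 7 and between 0.546 and 0.717 in technical replicate 1. In technical replicate 7 all 5 were far below the median of all its peaks, 0.625.

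The 5 members with the fewest CpGs were Cyp1a1, Hgfac, Cyp4f16, Hsd3b7 and Ttc34. Cyp1a1, a cytochrome P450 induced through the aryl hydrocarbon receptor, had the lowest ratio, 0.0635, with percentiles of 38.5 in technical replicate 7 and 20.7 in technical replicate 1. Hgfac, the activator of hepatocyte growth factor, had a ratio of 0.0826 and percentiles of 42.4 and 16.2. Cyp4f16, another cytochrome P450, had 0.0968 and percentiles of 77.7 and 42.9. Hsd3b7, an enzyme of bile acid synthesis, had 0.100 and the strongest peak of the 5, at percentiles 87.9 and 81.6. Ttc34, a tetratricopeptide-repeat protein, had 0.101 and percentiles of 43.7 and 20.7. These 5 were picked by CpG content, and no count of functions was made over the members. Of 82 CpG-poor starts of genes named Cyp, 4 were open (4.88%), beside 5.01% of all CpG-poor starts.

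Among marker lists of the cell types that fetal liver can hold, the open share of CpG-poor starts was larger for the listed erythroid and progenitor genes than for the listed hepatoblast and hepatocyte genes. Beside 5.01% of all CpG-poor starts, 9 of 28 erythroid starts were open (32.1%, 95% interval 15.9 to 52.4) and 9 of 26 haematopoietic progenitor starts (34.6%, 17.2 to 55.7). Of platelet and megakaryocyte starts 3 of 18 were open (16.7%, 3.58 to 41.4). Of 84 hepatoblast and hepatocyte starts 1 was open (1.19%, 0.0301 to 6.45), although 22 (26.2%) had a peak of technical replicate 7, beside 11.0% of all CpG-poor starts. Lmo2 stands in both the erythroid and the progenitor list. The lists do not hold every gene of a cell type, and the shares depend on the genes listed. Hsd3b7, an enzyme of bile acid synthesis, and Hgfac were open but stood in no list, and F10, made by hepatocytes, was counted with the platelet genes. The lists were chosen with earlier results of these data known, so these shares are a description.

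**Figure D3:**
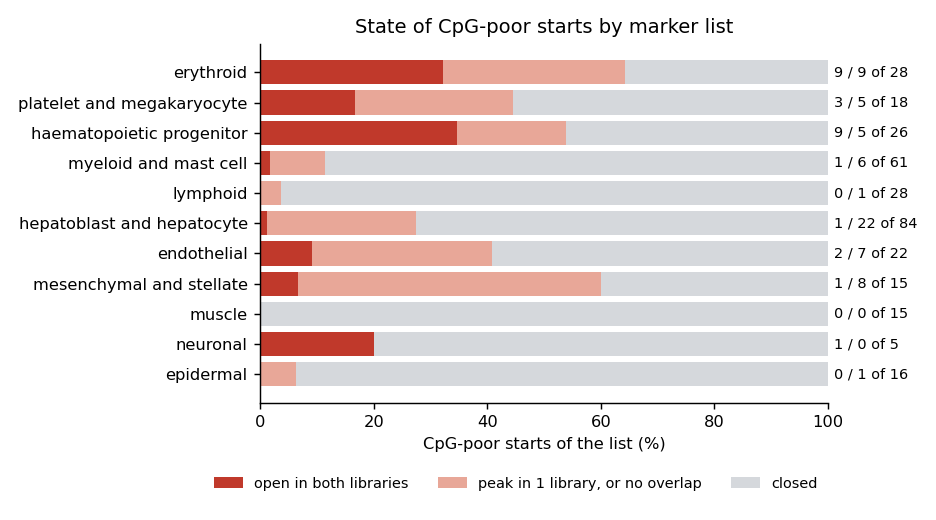
Share of each marker list's CpG-poor starts (horizontal axis, %) that were open in both libraries (red), had a peak in 1 library or peaks that did not overlap (pink), or were closed (grey), 1 bar per list. Figures at the right give open starts, starts in the middle class and all CpG-poor starts of the list: 9, 9 and 28 for erythroid genes and 1, 22 and 84 for hepatoblast and hepatocyte genes.

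The open erythroid promoters covered the red cell's receptor, membrane and regulators. Epor, whose signal keeps erythroid progenitors alive, had densities of 1.44 in technical replicate 7 and 1.84 in technical replicate 1, percentiles 81.0 and 69.6. Trim10 had 1.66 and 1.07, percentiles 83.9 and 39.0. Epb42 had 1.15 and 1.01, percentiles 74.9 and 34.5. After Nfe2 and Epor these and Ermap (percentiles 77.3 and 32.0) were the strongest of the list. Rhd, the Rh blood group protein, Ypel4 and Lmo2, a bridging factor of the TAL1 and GATA1 complex, had mean percentiles of 34.5, 34.1 and 27.4. All 9 stood lower in the ranking of technical replicate 1 than in that of technical replicate 7. The median percentile of all 374 members fell likewise, from 69.8 to 39.0, so this shift was not particular to the erythroid list.

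A further 9 erythroid CpG-poor starts had a peak of technical replicate 7 only. They were Aqp1, Gfi1b, Hba-x, Hbb-bs, Hbb-bt, Kel, Klf1, Rhag and Slc6a9. Klf1, the erythroid KLF factor, had a density of 1.15 there, percentile 74.9, the same as Epb42. Hbb-bs, an adult beta-globin, had 0.601, percentile 48.1. The remaining 10 were closed, among them Car1, Fech and Hba-a1, an adult alpha-globin. The globin genes Hba-a2, Hbb-bh1 and Hbb-y were closed as well. Hba-a1 and the pair Hbb-bs and Hbb-bt have near-identical copies, and the handling of multiply mapping reads is not given in the sources used here. Whether this cost reads was not tested.

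For several closed erythroid genes the open chromatin lay at another annotated start of the gene. Of the 10 closed erythroid starts, 5 belonged to genes with a peak shared by both libraries within 500 bp of another annotated start: Fech, the last enzyme of haem synthesis, Hemgn, a haematopoietic nuclear protein, Slc11a2, an iron transporter, Slc4a1, the anion exchanger of the red cell membrane, and Steap3, a ferric reductase. Over all 6633 closed CpG-poor starts 694 (10.5%) were of this kind. Among closed myeloid starts 1 of 54 was, that of Spi1, which encodes PU.1. Among closed hepatoblast and hepatocyte starts 4 of 61 were, those of Asgr1, Cela1 and Vtn among them.

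The open progenitor promoters belonged to signalling and regulatory genes shared by blood lineages. Cd44, a hyaluronan receptor, had densities of 1.37 in technical replicate 7 and 1.68 in technical replicate 1, percentiles 79.8 and 65.7. Ptpn6, the phosphatase SHP-1, had percentiles of 72.3 and 30.3, and Runx1, at the outermost of its annotated starts, 67.6 and 32.0. Inpp5d, the lipid phosphatase SHIP1, and Arhgdib, a GDP-dissociation inhibitor of blood cells, had mean percentiles of 39.1 and 33.6. Vav1, Lmo2, Cd93 and Hcls1 had mean percentiles of 15.3 to 29.2. Closed were 12 starts, among them Arhgap15, Cd27, Cd48 and Ptprc, the pan-leukocyte protein CD45. Cd34 had a CpG-rich start, with a peak of technical replicate 7 only.

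The open promoters of the platelet list were those of P2rx1, an ATP-gated channel, Itga2b, and F10, at mean percentiles of 54.5, 48.8 and 39.9. F10 encodes coagulation factor X, a plasma protein made by hepatocytes. It was counted in this list and not in the hepatoblast list. Clec1b, F13a1 and Gp6 were among 10 closed starts.

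F7, coagulation factor VII, was the one open CpG-poor promoter of the hepatoblast list, at percentiles of 36.8 in technical replicate 7 and 3.91 in technical replicate 1. Peaks of technical replicate 7 without a partner lay at 21 further starts, such as Apoa1 and Apob, apolipoproteins, Hnf4a, a hepatocyte regulator, and Ttr, transthyretin, and F5 had a peak of technical replicate 1 only. Apoa1 had a density of 0.485, percentile 34.4, Hnf4a 0.509, percentile 37.9, and Ttr 0.517, percentile 39.0. These densities were below the 0.625 that is the median of the library. The 5′ ends of Alb, A1bg, Adh1 and Agt were closed. Afp, alpha-fetoprotein, was CpG-rich by the limit, at 0.392, with a peak of technical replicate 7 only, percentile 45.

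For the other cell types the counts were small. Their intervals held the 5.01% of all CpG-poor starts, as did those of the hepatoblast and platelet lists. The endothelial list had Ets1 and Ecscr of 22, at mean percentiles of 24.2 and 12.3, with Aplnr, Cdh5 and Clec4g closed. The mesenchymal and stellate list had Hgf of 15, at 38.5, although 9 of the 15 had a peak of technical replicate 7. The myeloid and mast cell list had Emilin2 of 61, at 36.3, with Adgre1, C1qa and C1qb closed. No lymphoid start of 28, no muscle start of 15 and no epidermal start of 16 was open, which allows shares of up to 10.7%, 20% and 18.8% (3 counts of each total). Gfap, an astrocyte filament protein, was the open one of 5 neuronal starts, at percentiles of 80.9 in technical replicate 7 and 49.3 in technical replicate 1.

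The Olfr, Vmn1r, Vmn2r and Tas2r receptor families made up 1476 of the 6633 closed CpG-poor starts. Of 1119 CpG-poor olfactory receptor starts named Olfr, 1 was open, Olfr464, at percentiles of 73.3 in technical replicate 7 and 5.03 in technical replicate 1. None of 206 Vmn1r, 121 Vmn2r or 35 Tas2r starts was open. Outside these 4 families 373 of 5989 CpG-poor starts (6.23%) were open. Zinc-finger genes named Zfp had 13 of 68 open (19.1%, 10.6 to 30.5), among them Zfp120, Zfp456 and Zfp937, and Tmem genes had 8 of 55 (14.5%, 6.50 to 26.7). Trim genes, a family picked after the members were seen, had 9 of 33.

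Several motifs differed in frequency between open and closed CpG-poor starts. Matches were sought on both strands within 250 bp of the 5′ end, and a match describes letters, not binding. The CTCF consensus was found in 29 open promoters (7.75%, 5.25 to 10.9), against 1.15% of closed starts, a ratio of 6.77 (4.47 to 10.2), and in 3.3% of all 20807 starts. The GC box, GGGCGG, was found in 42.5% of open promoters, against 10.1% of closed starts, a ratio of 4.22 (3.68 to 4.85), and in 53.5% of all starts. Since GC content differed between the classes, closed starts were also weighted to the GC quintiles of the open ones. The ratios were then 3.31 for CTCF and 2.10 for the GC box. The letters of the GC box include a CpG, and open promoters had more CpGs than closed starts. With closed starts weighted to CpG quintiles instead, an alternative chosen after seeing the data, the ratios were 5.73 for CTCF and 2.63 for the GC box.

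The CCAAT box, AACCAAT or AGCCAAT, was found in 19.8% of open promoters, against 13.2% of closed starts, a ratio of 1.5 (1.22 to 1.86), and in 14.8% of all starts. Weighted by GC the ratio was 1.94. The composite, CTG and then AGATAA or TGATAA after 7 to 9 bases, was found in 23 open promoters (6.15%, 3.94 to 9.08). Of closed starts 2.74% held it, a ratio of 2.24 (1.47 to 3.41), or 3.11 weighted by GC, and of all starts 1.68%. At least 1 of CTCF, GC box, CCAAT box and the composite was found in 233 of the 374 open promoters (62.3%), against 25.1% of closed starts. These 4 were named together after their shares were seen. The CCAAT box depended on the limits of the class and the window, with a ratio of 1.01 at a CpG limit of 0.30 and of 1.04 within 500 bp.

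The TATA box went the other way. A match to TATAAA or TATATA on the gene's strand, 40 to 15 bp before the 5′ end, was found in 5 open promoters (1.34%, 0.435 to 3.09), against 559 closed starts (8.43%, 7.77 to 9.12), a ratio of 0.159 (0.0662 to 0.380). Open CpG-rich promoters had it in 1.10% and all starts in 3.73%. Weighted by GC the ratio was 0.179. Of the 5, Acy3 had the highest mean percentile, 67.8, and Cxcl3 the second lowest, 21.2. Among genes whose 5′ end starts a basic transcript, which members had less often than closed starts, the ratio was 0.150.

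The plain GATA site, AGATAA or TGATAA, was found in fewer open promoters than closed starts, 28.1% against 41.3%, a ratio of 0.679 (0.576 to 0.801), and in 22.6% of all starts. Weighted by GC, 27.5% of closed starts held it, a ratio of 1.02, so the difference was no longer seen. The CACCC box, CCNCACCC, was found in 30.7% of open promoters, against 17.1% of closed starts, a ratio of 1.80 that fell to 1.04 when weighted, and in 25.3% of all starts. The FOXA site, TGTTTAC or TATTTAC, was found in 5.88% of open promoters, against 12.9% of closed starts, a ratio of 0.457, or 0.730 weighted, and in 7.92% of all starts. An ETS site without CpG, AGGAAGT, had a ratio of 1.09 (0.874 to 1.36) and was found in 12.6% of all starts.

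**Figure D4:**
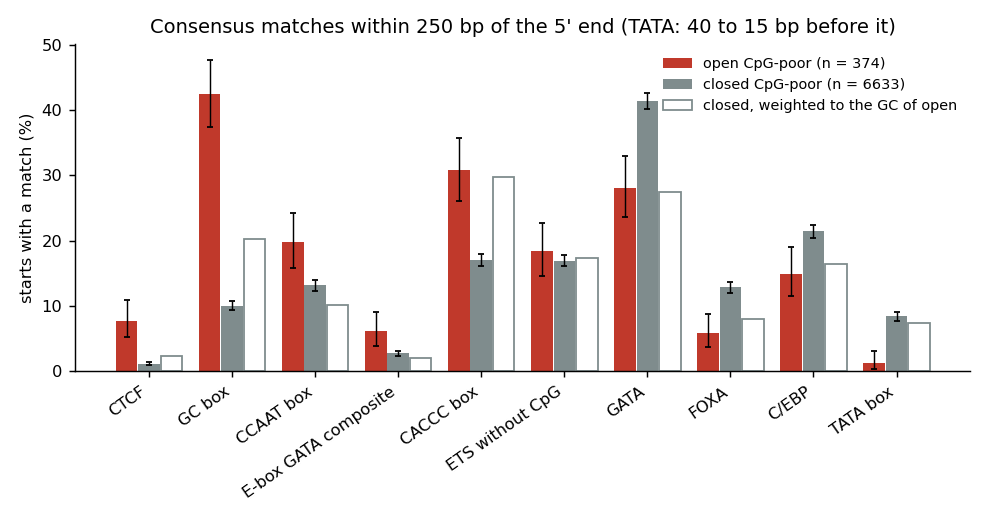
Share of starts with a consensus match (vertical axis, %) for 10 motifs, in 374 open CpG-poor promoters (red), 6633 closed CpG-poor starts (grey) and closed starts weighted to the GC quintiles of the open ones (white); error bars are exact 95% binomial intervals. The red bar stands above both others for CTCF, GC box, CCAAT box and the E-box GATA composite and below both for the TATA box and FOXA, while GATA and the CACCC box meet the white bar.

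The GATA letters were frequent in the open erythroid promoters. GATA matches were found in 8 of the 9 open erythroid promoters, with Ypel4 the exception, beside 28.1% of all members and 41.3% of closed CpG-poor starts. Erythroid starts that were not open were not counted for GATA, so these counts do not tie GATA to openness. The composite was found in Epb42, Ermap and Nfe2, and in Itga2b of the platelet list. In the progenitor list 4 of 9 held GATA (Inpp5d, Cd44, Lmo2 and Hcls1) and 5 of 9 the ETS site (Inpp5d, Ptpn6, Arhgdib, Hcls1 and Vav1), beside 18.4% of all members. No member of these 3 lists held the CTCF consensus or a TATA box. The lists are short, and these counts are a description. Outside the lists the composite was also found at Mknk2, a kinase, and Cbfa2t3, the corepressor ETO2 of erythroid cells, at mean percentiles of 78.3 and 78.1.

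Members with a CTCF match were of mixed kinds and had a median percentile of 75.1 in technical replicate 7 and 40.3 in technical replicate 1. Amigo3 led them with densities of 3.98 in technical replicate 7 and 2.69 in technical replicate 1, percentiles 95.3 and 82.6, followed by Hsd3b7, Arhgap22 and Tmem211. Matches lay upstream of and close to the 5′ end. The 50 bp window from 100 to 50 bp before it held a CTCF match in 12 open promoters (3.21%), against 0.166% of closed starts. For the GC box the window of most matches was the last 50 bp before the 5′ end, with 17.4% of open promoters, against 2.34% of closed starts. The CCAAT box peaked between 100 and 50 bp before the 5′ end, with 5.61% of open promoters, against 3.05% of closed starts.

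Footprints are short stretches inside open chromatin that are cut less than their surroundings, called by the authors in each library. In the shorter list of technical replicate 7, used unless stated otherwise, 290 of 374 members (77.5%, 73.0 to 81.7) had at least 1 footprint centred in their peak, at 4.82 per kb of peak (4.41 to 5.26). Open CpG-rich promoters had one in 90.3%, at 9.80 per kb. In the list of technical replicate 1, which was made by a different processing, the densities were 9.0 per kb in members and 15 per kb in CpG-rich promoters. Within 250 bp of the 5′ end 66.6% of members had a footprint of technical replicate 7, against 1.01% of closed starts, for which no peak was listed there.

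The gap to CpG-rich promoters was smaller among peaks of like rank. In technical replicate 7 the members at percentiles 60 to 80 had 4.47 footprints per kb (3.8 to 5.22), against 3.86 (3.68 to 4.06) in CpG-rich promoters of the same ranks. At 40 to 60 they had 3.02 (2.38 to 3.79), against 2.46 (2.24 to 2.69). At 80 to 100 they had fewer, 8.20 (7.23 to 9.27), against 11.9 (11.7 to 12), where the upper quartile of all ranks was 83.2 in members, against 96.7 in CpG-rich promoters. In technical replicate 1 the members had 9.09 (8.18 to 10.1) at 40 to 60, against 10.8 (10.5 to 11.1), and 7.53 (6.67 to 8.46) at 0 to 20, against 7.72 (7.30 to 8.15). The longer footprint list of technical replicate 7 gave 11.8 (10.7 to 13) in members at 60 to 80, against 12 (11.7 to 12.4), and 8.14 (7.06 to 9.34) at 40 to 60, against 8.63 (8.22 to 9.06). Which class had more footprints at these ranks thus changed with the list, and the intervals of both classes overlapped there in technical replicate 7.

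**Figure D5:**
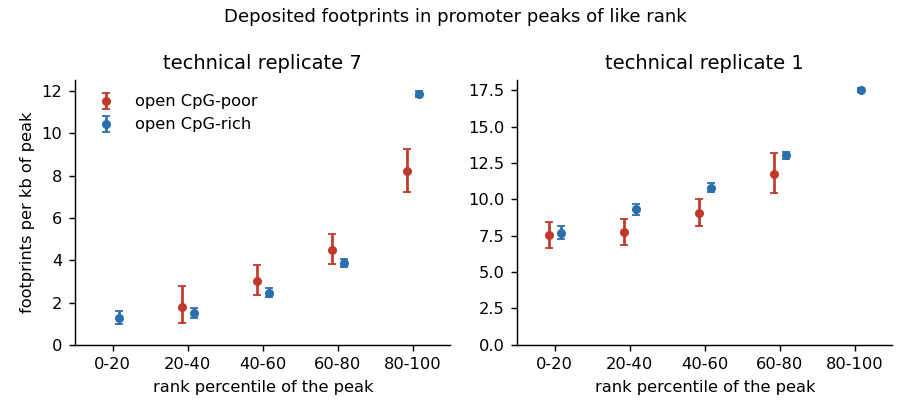
Deposited footprints per kb of promoter peak (vertical axis) by the peak's density rank percentile (horizontal axis, strata of 20), for technical replicate 7 (left) and technical replicate 1 (right). Points are open CpG-poor (red) and open CpG-rich (blue) promoters with exact 95% Poisson intervals; strata with fewer than 20 promoters are not drawn. In technical replicate 7 red lies at 4.47 and blue at 3.86 in the stratum 60 to 80, and both climb with rank.

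The members with most footprints in technical replicate 7 had 5 each. They were Gm6034 and H2-T22, which share a peak, A630089N07Rik, Ptms, encoding parathymosin, and Ggta1, a glycosyltransferase. Their peaks ranked between percentiles 87.0 and 88.9 in technical replicate 7. Dpp7, at percentile 90.6, had no footprint in that list and 3 in the list of technical replicate 1.

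Among motifs with at least 20 matches in members' peaks, CTCF was the one that footprints covered most. Of 38 CTCF matches in members' peaks of technical replicate 7, 26 (68.4%, 51.3 to 82.5) had their centre in a footprint, and of 35 in technical replicate 1, 27 (77.1%, 59.9 to 89.6). Footprints covered 5.11% and 9.53% of the bases of these peaks. In CpG-rich promoters the shares for CTCF were 53.1% and 61.3%. For the GC box in members they were 23.2% (54 of 233) in technical replicate 7 and 47.4% (117 of 247) in technical replicate 1, against 35.1% and 48.6% in CpG-rich promoters.

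For GATA, the E-box GATA composite, the CCAAT box and the CACCC box the shares in members were lower than for CTCF and moved with the footprint list. For GATA it was 4 of 87 (4.60%, 1.27 to 11.4) in technical replicate 7 and 5 of 98 (5.10%, 1.68 to 11.5) in technical replicate 1. For the E-box GATA composite it was 2 of 20 and 5 of 18, and for the CCAAT box 3 of 64 and 6 of 64. The CACCC box, a site of KLF factors, stood higher, with 11 of 112 (9.82%) and 36 of 143 (25.2%). The interval of the GATA share held the share of bases covered in each library, 5.11% in technical replicate 7 and 9.53% in technical replicate 1. In the longer list of technical replicate 7, which covered 13.2% of bases, it was 15 of 87 (17.2%) for GATA, 15 of 64 (23.4%) for the CCAAT box and 30 of 38 (78.9%) for CTCF. A match outside a called footprint says nothing on whether the factor was bound.

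Open CpG-poor promoters had more open chromatin around them than closed starts. Within 50 kb of the 5′ end, and over 1 kb from any annotated start, they had 1.81 peaks shared by both libraries on average, and 64.2% (59.1 to 69.0) had at least 1. Closed CpG-poor starts had 0.807 on average and 34.6% (33.4 to 35.7) had at least 1. Open CpG-rich promoters had 1.45 and 59.7%. The part of gene density and of receptor gene clusters in this difference was not tested.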

How the data were processed

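DNase-seq files of 1 biosample in 2 technical replicates were used, on mm10 per the labels. The sources used here do not name aligner, callers or thresholds. Each deposited peak carries, as signal, its maximum density of cuts. The shorter of 2 lists per library was used, and ranks were taken within a library. The deposited hotspots carry a −log10 value of the FDR, and every member peak lay in one. The deposited footprints of technical replicate 1 hold a constant of 0.01, read as a p-value threshold. Those of technical replicate 7 hold positions, an other kind of value, as deposited.

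Gene 5′ ends came from GENCODE vM21 and sequence from GRCm38. The ratio is CpG count times length over C count times G count. Shares have exact Clopper-Pearson intervals, rates exact Poisson intervals and ratios log-scale intervals, all at 95% for counting error only; a count of 0 is given with the share that 3 counts make. In all, 24 consensus motifs and 11 marker lists with 492 genes were used. The members and lists were chosen with earlier results of these data known. Named genes are the 15 highest and 5 lowest by mean percentile, the 5 with fewest CpGs, the 5 with most footprints, those beside the limits, list members (up to 5 open, 3 closed) and 11 fixed genes; others were chosen after their values were seen. Some genes that this rule takes are not reported here. Functions were checked on simulated data. Python 3.11.15, numpy 2.4.6, pandas 2.3.3 and scipy 1.17.1 were used.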

Additional observations from a re-analysis of the deposited data

Results flagged for a closer look

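The list of an earlier processing of technical replicate 1, which took no part in choosing the members, had a peak centred within 500 bp of 82 of the 6633 closed CpG-poor starts (1.24%, 95% interval 0.984 to 1.53). A count of 0 would allow up to 0.0452% (3 counts of the total). It was noted because the signal stands in a list that the classes did not use. The same list overlapped the peak of 344 of the 374 open promoters (92.0%).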

How the results depend on the processing

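With a CpG limit of 0.30 there were 228 open promoters (3.38% of CpG-poor starts) and a CCAAT ratio of 1.01, and with 0.40 there were 569 (7.00%). CpG content in 500 bp gave 5.53% and a CCAAT ratio of 1.11. Peaks within 250 bp gave 4.23%. Peaks within 1000 bp gave 571 (7.64%), median percentiles of 74.9 and 46.0 in technical replicates 7 and 1, ratios of 3.35 for the GC box and 1.21 for the CCAAT box, 82.1% with a footprint and 5.61 footprints per kb. The longer peak lists gave 6.55%, median percentiles of 73.7 and 43.0, 71.4% with a footprint and 4.25 per kb. An overlap of 50% of both peaks gave 3.64% and 82.7% with a footprint.

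Leaving out 1 library gave 821 open promoters without technical replicate 1 and 382 without technical replicate 7, which are 11.0% and 5.11% of CpG-poor starts. Without technical replicate 1 the median percentile in technical replicate 7 was 50.9, 62.7% had a footprint, there were 3.38 footprints per kb and the GC box ratio was 3.15. Over both ways the median percentile in technical replicate 1 was 37.5 without technical replicate 7, and the ratios ran from 5.05 to 5.86 for CTCF, from 3.15 to 3.90 for the GC box, from 1.23 to 1.47 for the CCAAT box, from 1.93 to 2.31 for the composite, from 0.696 to 0.790 for GATA and from 0.162 to 0.261 for the TATA box.

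Weighting closed starts to the GC quintiles gave 3.31 for CTCF, 2.10 for the GC box and 1.94 for the CCAAT box. It took GATA from 0.679 to 1.02, where the shares of open and closed starts were nearly equal. Motifs within 75 bp gave 5.56 for the GC box, 2.45 for the CCAAT box and 3.71 for the composite, and within 500 bp 1.04 for the CCAAT box. The longer footprint list of technical replicate 7 gave 95.2% and 11.6 per kb, and that of technical replicate 1 95.5% and 9.0 per kb.

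Chosen after seeing the data were 4 alternatives. Weighting to CpG quintiles gave 2.63 for the GC box and 0.808 for GATA, leaving out the receptor families gave 6.23% and 3.35 for the GC box, and a limit at the peak centre too gave 4.43%. The other 138 values, those for basic starts included, stayed within the interval of the reported value or, for the number of promoters, within 1.5 times. The cause of these changes was not tested. No paired analysis was possible because both libraries belong to 1 group. The part of depth in the shorter peak list of technical replicate 1 was not tested.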
